A study of Mus musculus with 18 samples.

Results

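A set of 9 secreted factor genes of mouse fibroblasts was followed across NIH3T3 cells with and without an introduced TRIM21. They are the chemokine genes Ccl2, Ccl7, Ccl5, Cxcl1, Cxcl5, Cxcl10 and Cxcl12, and the cytokine genes Il6 and Csf1. The 9 were taken by name from 24062 genes counted in every library, with earlier results of these data already known. Of the 12140 genes with enough reads to test, 8 were among them, and Cxcl10 fell below the filter on low counts.

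NIH3T3 is an established mouse embryonic fibroblast line, and the second line was derived from it and carries mCherry-mTRIM21, mouse TRIM21 joined to a red fluorescent protein. Both lines were electroporated with PBS (buffer alone), with the protein BSA or with an IgG antibody, 7.5 µg of either protein, using 2 pulses of 1400 V and 20 ms. RNA was taken after 16 h, selected for poly(A) and sequenced, which gave 6 groups of 3 samples and 18 libraries in all. The series is about a method that uses TRIM21 and antibodies to degrade a protein inside cells, so the IgG samples ask whether antibody in the cytosol changes the RNA of cells that hold much TRIM21, and the PBS and BSA samples are the controls. Every group went through electroporation, so none shows these genes in undisturbed cells. The mCherry-mTRIM21 cells (called the TRIM21 line below) are 1 derived line, so what its TRIM21 does and what its derivation did cannot be told apart. The unmodified NIH3T3 cells are called WT. The 3 samples of a group carry the numbers 10, 11 and 14 in their titles. Nothing in the labels says that they were separate cultures, so p-values measure only the spread between these samples.

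Chemokines are small secreted proteins that bind receptors coupled to G proteins and steer migrating leukocytes, while IL-6 and CSF1 act through a gp130 complex and a receptor tyrosine kinase. In fibroblasts, Ccl2, Cxcl1, Il6 and Cxcl10 are classic inducible genes, switched on by NF-kB, AP-1, C/EBP or interferon-responsive factors, and many of their mRNAs carry AU-rich elements that speed decay. Cxcl12 and Csf1 are typical stromal products made without an inflammatory stimulus. TRIM21 is a cytosolic antibody receptor and ubiquitin ligase that sends antibody-bound targets to the proteasome and, when it meets antibody-coated pathogens, can activate NF-kB, AP-1 and interferon pathways.

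The sequences that bear on this division are the promoters and the AU-rich sites. Of the 9 genes, 5 had an entry in the RefSeq promoter table (GRCm38.p6), and their 250 bases before the start of transcription are shown 5′ to 3′ because they hold the sites named above. Capitals mark matches to 4 motifs searched on both strands: NF-kB, the interferon-responsive ISRE (a pair of GAAA with any 2 bases between them), AP-1 (TGANTCA) and C/EBP (TTGNNCAA). No match of one motif overlapped a match of another.
Il6 promoter, chr5:30012864-30013113, plus strand: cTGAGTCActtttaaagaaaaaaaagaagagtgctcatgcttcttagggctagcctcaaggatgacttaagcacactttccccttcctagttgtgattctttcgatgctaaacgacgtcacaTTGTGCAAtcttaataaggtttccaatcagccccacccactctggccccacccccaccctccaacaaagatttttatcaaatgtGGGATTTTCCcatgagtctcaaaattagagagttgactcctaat
Cxcl10 promoter, chr5:92348890-92349139, minus strand: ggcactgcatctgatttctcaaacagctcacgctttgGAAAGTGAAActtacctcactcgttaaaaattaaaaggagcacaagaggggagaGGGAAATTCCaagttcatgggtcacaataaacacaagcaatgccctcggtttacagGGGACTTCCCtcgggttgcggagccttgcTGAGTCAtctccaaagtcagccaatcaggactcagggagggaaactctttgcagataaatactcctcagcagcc
Cxcl1 promoter, chr5:90890995-90891244, plus strand: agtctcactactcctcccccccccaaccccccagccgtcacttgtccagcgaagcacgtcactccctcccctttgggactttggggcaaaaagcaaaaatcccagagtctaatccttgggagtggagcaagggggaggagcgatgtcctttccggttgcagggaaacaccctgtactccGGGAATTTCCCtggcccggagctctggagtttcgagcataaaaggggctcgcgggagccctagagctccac
Csf1 promoter, chr3:107760470-107760719, minus strand: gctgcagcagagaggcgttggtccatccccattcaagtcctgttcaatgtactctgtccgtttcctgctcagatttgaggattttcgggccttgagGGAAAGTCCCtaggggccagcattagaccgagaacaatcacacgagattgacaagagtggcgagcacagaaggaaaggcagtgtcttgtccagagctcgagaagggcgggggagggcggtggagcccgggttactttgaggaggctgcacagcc
Cxcl12 promoter, chr6:117168285-117168534, plus strand: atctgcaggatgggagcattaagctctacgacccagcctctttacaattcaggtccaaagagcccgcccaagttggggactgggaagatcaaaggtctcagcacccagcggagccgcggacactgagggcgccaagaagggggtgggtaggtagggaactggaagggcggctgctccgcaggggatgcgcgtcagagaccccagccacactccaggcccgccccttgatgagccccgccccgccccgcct

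Il6 held 1 match each to AP-1, C/EBP and NF-kB, in that order toward the start of transcription. Cxcl10 held an ISRE, 2 NF-kB matches and an AP-1 match. In Cxcl1, 2 NF-kB matches overlapped each other, shown as 1 run of capitals, and Csf1 had 1 NF-kB match. Cxcl12 had no match to the 4 motifs in this window. Of 32851 promoters in the table, 3.9% held an NF-kB match, 2.98% an ISRE, 6.75% an AP-1 match and 5.65% a C/EBP match. A match is a description of the letters and no evidence of binding in these cells.

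The pentamer ATTTA, the core of AU-rich elements, was counted in the longest annotated 3′UTR of each gene (GENCODE M21 transcripts). Windows of 30 bases are shown for 4 genes with many, some or 1 copy, with ATTTA in capitals.
Cxcl1 3′UTR: tcctATTTATTTAtgtATTTATTTAttcca
Il6 3′UTR: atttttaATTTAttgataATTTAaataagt
Csf1 3′UTR: aaggtcATTTAaatatctATTTAaaaaata
Ccl2 3′UTR: aatattaaacttATTTAacttattgatgtt
Il6 had 10 copies in its whole 3′UTR, a number reached by 7.45% of the 11113 tested genes with such a region. Cxcl1 had 7 copies, 4 of them in the window shown, Cxcl5 had 5, Cxcl12 and Csf1 had 4 each, Cxcl10 had 3, Ccl7 had 2, Ccl2 had 1 and Ccl5 had none. The median of the tested genes was 2. These counts grow with the length of the region: per kilobase, Cxcl1 had 11.8, Il6 5.98, Ccl7 4.57, Cxcl5 4.49, Ccl2 3.6, Cxcl10 3, Csf1 1.89, Cxcl12 0.771 and Ccl5 0, against a median of 1.34.

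The genes lie in several clusters of the GRCm38 genome (GENCODE M21), and all 9 are protein coding. The CC chemokine genes lie on chromosome 11: Ccl2 (ENSMUSG00000035385) spans chr11:82035571-82037453 and Ccl7 starts 8258 bases further on, at chr11:82045712-82047525. Ccl5 lies at chr11:83525778-83530518. On chromosome 5, Cxcl5 spans chr5:90759360-90761624, Cxcl1 chr5:90891241-90893115, Cxcl10 chr5:92346638-92348889 and Il6 chr5:30013114-30019981. Cxcl12 lies at chr6:117168535-117181367 and Csf1 at chr3:107741048-107760469. Values below are whole-gene counts and do not separate exons or isoforms.

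Each library held 19509017 to 29766433 reads assigned to genes, so that 3 counts, the floor used here, correspond to 0.0981 to 0.152 CPM, reads of a gene per 1000000 scaled library reads. Trim21 itself separated the lines: 19900 to 32225 counts per library in the TRIM21 line (1040 ± 63.6 CPM, SD, n = 9) against 142 to 223 in WT (8.02 ± 1.13 CPM, SD, n = 9). Summed over 10 fibroblast markers such as Col1a1 and Pdgfra, the level was 19600 to 33400 CPM in the TRIM21 line and 29000 to 39000 CPM in WT. The lowest of these values, 19600, belonged to the TRIM21 PBS sample numbered 11, whose median correlation with the other libraries was 0.9781 (0.9843 to 0.9903 for the other libraries). This sample was also the lowest of all 18 in Ccl5, Cxcl5, Cxcl12 and Il6 and the highest in Csf1, so values without it are given below. Thy1, a fibroblast surface marker, was the 1 of the 10 that passed the test, at a log2 difference of -0.29 (edgeR, adjusted p = 0.0207; the Benjamini-Hochberg adjustment runs over all tested genes), a call lost without TRIM21 BSA number 10 (0.0509) or TRIM21 IgG number 10 (0.0547). Over all tested genes, 6.18% were called between the lines. Of 7 macrophage markers measured, 3 passed the filter. These were Cd68 (means of 6.37 CPM in the TRIM21 line and 6.15 in WT), Cd14 (5.37 and 5.14) and Csf1r (2.56 and 2.73). Fcgr1 was at 0 in all samples, and Ptprc, Lyz2 and Itgam had at most 5 counts. The sum of all 7 was 12.4 to 17.1 CPM in the TRIM21 line and 12 to 15.9 CPM in WT. Lymphocyte markers summed to at most 0.148 CPM, with Cd3e, Cd3g and Ms4a1 at 0. Endothelial markers reached at most 2.6 CPM and epithelial markers at most 0.583 CPM. In bulk RNA, fewer cells making a transcript and less transcript per cell cannot be told apart.

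The 9 genes spanned a wide range of levels. Per kilobase of exon, the scale on which genes can be compared, Csf1 was highest at 105 ± 9.63 CPM per kb (SD over all 18 samples). Ccl7 (59.3 ± 7.93), Ccl2 (42.6 ± 6.61) and Cxcl12 (34.4 ± 4.11 CPM per kb) followed. Cxcl5 lay far lower at 5.1 ± 1.19, then Cxcl1 at 1.75 ± 0.429, Ccl5 at 0.907 ± 0.384, Il6 at 0.498 ± 0.218 and Cxcl10 at 0.133 ± 0.0448 CPM per kb. The 18 values did not overlap between Csf1 (89.5 to 132) and Ccl7 (49.5 to 79.7), nor between Cxcl12 (24.5 to 41.3) and Cxcl5 (2.98 to 7.05), nor between Cxcl5 and Cxcl1 (1 to 2.36). Those of the other neighbours in the order overlapped. The stromal products Csf1 and Cxcl12 and both neighbouring CC chemokine genes were thus abundant, and the interferon-inducible Cxcl10 had 3 to 10 counts per library, at the edge of detection.

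**Figure D1:**
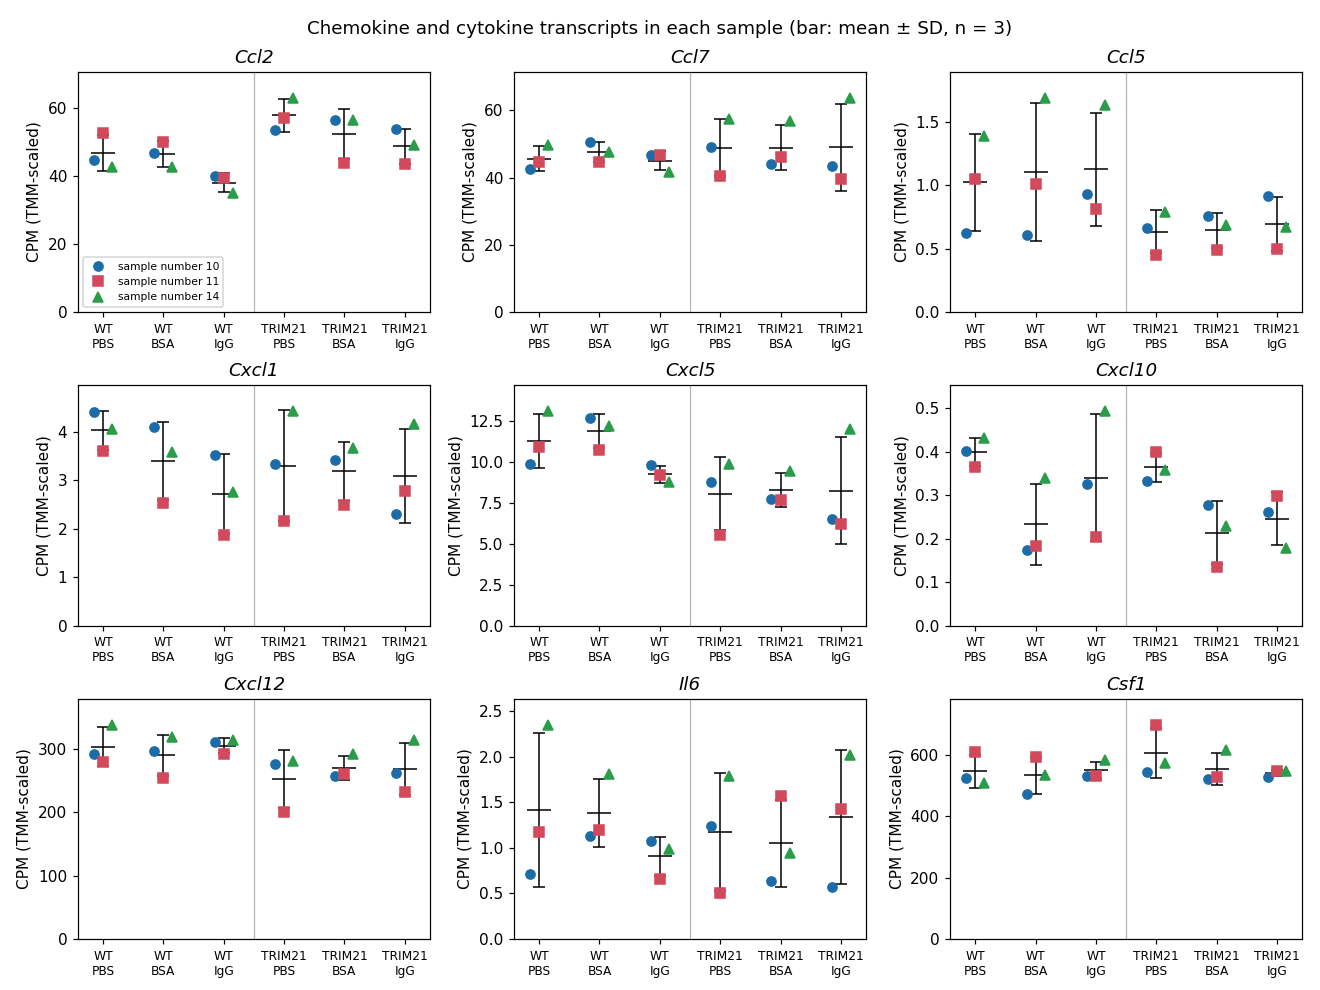
Level in CPM of each of the 9 genes (1 panel a gene, each with its own axis from 0) in the 18 libraries, by line and electroporated material; each point is 1 sample and bars are group means ± SD. The lines overlapped for every gene, and Ccl2 was higher in the TRIM21 line after PBS (53.7 to 63.2 against 42.8 to 52.9) and after IgG (43.6 to 53.9 against 35.1 to 40).

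Ccl2, which encodes the monocyte chemoattractant that binds CCR2, was the one gene of the set that passed the test between lines. In the TRIM21 line its samples numbered 10, 11 and 14 had 53.7, 57.1 and 63.2 CPM after PBS, 56.7, 44.0 and 56.7 after BSA, and 53.9, 43.6 and 49.2 after IgG. In WT they had 44.9, 52.9 and 42.8 CPM after PBS, 47.0, 50.1 and 42.6 after BSA, and 40, 39.4 and 35.1 after IgG. All TRIM21 samples lay above all WT samples after PBS and after IgG, but not after BSA, where the TRIM21 sample numbered 11 lay below WT samples. Of 9 pairs with the same material and number, the TRIM21 sample was higher in 8. The line means were 53.1 ± 6.45 and 43.9 ± 5.54 CPM (SD, n = 9 each). Averaged over the 3 materials, Ccl2 was 1.21-fold higher in the TRIM21 line, a log2 difference of 0.28 (SE 0.0691, approximate 95% interval 0.14 to 0.41, adjusted p = 0.0205 in edgeR's quasi-likelihood test). That made 1 of the 8 tested genes called higher, beside 1.39% of all tested genes called higher and 6.18% called in either direction. Leaving out each library in turn gave log2 differences of 0.253 to 0.315 and adjusted p values of 0.00677 to 0.0629 (edgeR). The call was lost without any of 4 libraries: TRIM21 BSA number 10 (adjusted p = 0.0508, edgeR), TRIM21 IgG number 10 (0.056), WT BSA number 14 (0.0629) and WT IgG number 14 (0.0511). Without the TRIM21 PBS sample numbered 11 the difference was 0.283 (adjusted p = 0.0275, edgeR).

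Taken within 1 number, the Ccl2 difference was 0.305 among samples numbered 10, 0.0152 among those numbered 11 and 0.488 among those numbered 14 (log2, adjusted p = 0.0956, 0.985 and 0.0845, edgeR). The samples numbered 11 thus showed little difference. Each single-number fit, here and below, set 3 samples of 1 line, 1 per material, against 3 of the other. Its p-values therefore measure spread across materials as well as between samples. Within 1 material, the log2 difference was 0.31 (SE 0.119) after PBS, 0.17 (SE 0.119) after BSA and 0.36 (SE 0.12) after IgG, with edgeR adjusted p values of 0.181, 0.654 and 0.337. None of the 8 genes was called within a material, beside 1.71% of tested genes after PBS, 0.848% after BSA and 0.774% after IgG. These 3 values share the fit with the average above and add no independent evidence to it.

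Ccl7, the neighbour of Ccl2 that encodes a monocyte chemoattractant as well, had no called difference. Its levels were 39.6 to 63.8 CPM in the TRIM21 line and 41.7 to 50.7 CPM in WT, with means of 48.9 ± 8.49 and 46.1 ± 3.04 (SD, n = 9). The highest WT value lay under 3 TRIM21 samples, all numbered 14 (57.4, 56.7 and 63.8 CPM after PBS, BSA and IgG). The log2 difference was 0.09 (SE 0.0911, interval -0.09 to 0.27, edgeR adjusted p = 0.618). It was -0.0499, -0.116 and 0.355 within numbers 10, 11 and 14. Whether Ccl2 and Ccl7 differed from each other in their line difference was not tested.

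Ccl5, a chemokine for T cells and monocytes, was low in both lines. The TRIM21 samples numbered 10, 11 and 14 had 0.665, 0.45 and 0.787 CPM after PBS, 0.754, 0.492 and 0.687 after BSA, and 0.913, 0.495 and 0.673 after IgG. The WT samples had 0.623, 1.05 and 1.39 CPM after PBS, 0.61, 1.01 and 1.69 after BSA, and 0.929, 0.812 and 1.63 after IgG. The WT samples numbered 14 were the highest of all, while those numbered 10 lay among the TRIM21 values after PBS and BSA and just above the highest of them after IgG (0.929 against 0.913 CPM). The line means were 0.657 ± 0.154 and 1.08 ± 0.403 CPM (SD, n = 9). The log2 difference of -0.70 (SE 0.23, interval -1.15 to -0.25) missed the threshold (edgeR adjusted p = 0.08). It was 0.108 within number 10, -1.01 within number 11 and -1.13 within number 14 (edgeR adjusted p = 0.912, 0.445 and 0.0253). Without the TRIM21 PBS sample numbered 11 it was -0.644 (adjusted p = 0.141, edgeR). It passed when either of the WT samples numbered 10 with PBS (-0.789, adjusted p = 0.0467) or BSA (-0.809, adjusted p = 0.0427) was left out.

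Among the CXC chemokines for neutrophils, Cxcl5 had lower values in the TRIM21 line with no call, and Cxcl1 had close means. Cxcl5 had 8.75, 5.55 and 9.87 CPM after PBS, 7.7, 7.69 and 9.45 after BSA, and 6.52, 6.18 and 12 after IgG in the TRIM21 samples numbered 10, 11 and 14. The WT samples had 9.88, 10.9 and 13.1 CPM after PBS, 12.7, 10.7 and 12.2 after BSA, and 9.8, 9.19 and 8.77 after IgG. All TRIM21 samples lay below all WT samples after PBS and after BSA, and the groups overlapped after IgG through the TRIM21 sample numbered 14. The line means were 8.19 ± 2.04 and 10.8 ± 1.57 CPM (SD, n = 9), and 1 of 9 pairs was higher in the TRIM21 line. The log2 difference of -0.39 (SE 0.13, interval -0.64 to -0.13) missed the threshold (edgeR adjusted p = 0.0869). It was -0.511, -0.669 and -0.132 within numbers 10, 11 and 14, and -0.321 (adjusted p = 0.147, edgeR) without the TRIM21 PBS sample numbered 11. It passed without the TRIM21 samples numbered 14 with PBS (-0.448, adjusted p = 0.0389, edgeR) or IgG (-0.513, adjusted p = 0.0069), and with DESeq2's Wald test on all samples (adjusted p = 0.0428). Counting Ccl2 above WT and Cxcl5 below WT, 2 of 8 tested genes had lines that did not overlap after PBS (15.4% of all tested genes), 1 after BSA (16.8%) and 1 after IgG (19.8%). Over all 9 samples a line, every one of the 9 genes overlapped, as did all but 1.91% of tested genes.

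Cxcl1 had 1.88 to 4.43 CPM over all samples, with means of 3.19 ± 0.815 in the TRIM21 line and 3.38 ± 0.831 in WT (SD, n = 9). Its log2 difference was -0.06 (SE 0.162, interval -0.38 to 0.26, edgeR adjusted p = 0.864). Within numbers 10, 11 and 14 it was -0.423, -0.126 and 0.231.

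Cxcl10, which encodes the interferon-inducible CXCR3 ligand, was at 0.274 ± 0.0848 CPM in the TRIM21 line and 0.324 ± 0.114 in WT (SD, n = 9), a difference of -0.0496 CPM (exact two-sided permutation test over 48620 assignments, p = 0.307). It had 3 to 10 counts per library. Cxcl12, which encodes the CXCR4 ligand that retains blood stem cells in their niche, ranged from 200 to 313 CPM in the TRIM21 line and from 254 to 338 CPM in WT. Its means were 264 ± 33.1 and 299 ± 24.1 CPM (SD, n = 9), and the log2 difference of -0.18 (SE 0.0776, interval -0.34 to -0.03) did not pass the test (edgeR adjusted p = 0.178). It kept its sign within numbers 10, 11 and 14 (-0.191, -0.262 and -0.13) and was -0.137 without the TRIM21 PBS sample numbered 11. Ccl2, Ccl5, Cxcl5 and Cxcl12 had unadjusted p values under 0.05, 4 of the 8 tested genes beside 21.4% of all tested genes (edgeR).

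Neither cytokine gene passed the test between lines. Il6 had 1.24, 0.5 and 1.79 CPM after PBS, 0.635, 1.57 and 0.948 after BSA, and 0.565, 1.43 and 2.02 after IgG in TRIM21 samples numbered 10, 11 and 14. In WT it had 0.712, 1.17 and 2.35 CPM after PBS, 1.13, 1.2 and 1.81 after BSA, and 1.07, 0.66 and 0.986 after IgG. High and low samples occurred in both lines and all materials. The means were 1.19 ± 0.557 and 1.23 ± 0.533 CPM (SD, n = 9), and the interval of the log2 difference was wide, from -0.59 to 0.54 (estimate -0.03, SE 0.287, edgeR adjusted p = 0.967). Without the TRIM21 PBS sample numbered 11 the Il6 estimate was 0.0859. Csf1, the growth factor of macrophages, was at 566 ± 57.3 CPM in the TRIM21 line and 543 ± 43.6 CPM in WT (SD, n = 9). Its interval was narrow, from -0.07 to 0.19 (log2 difference 0.06, SE 0.0659, edgeR adjusted p = 0.635). The highest Csf1 value, 698 CPM, was that of the TRIM21 PBS sample numbered 11, and without it the difference was 0.0215.

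**Figure D2:**
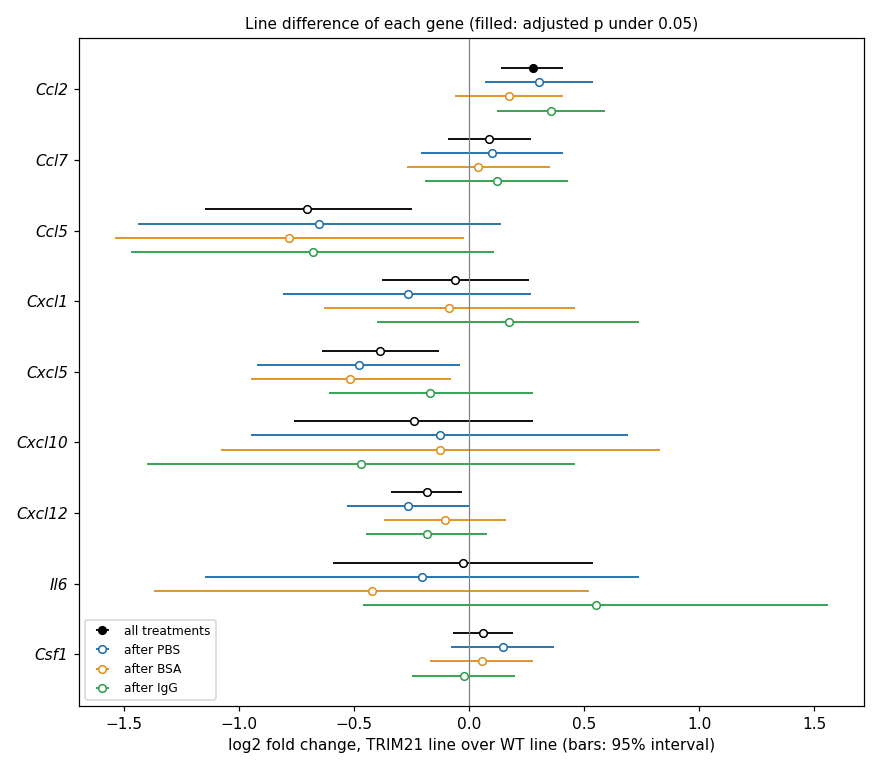
Log2 difference between the lines (TRIM21 minus WT) for each gene, over all materials and after PBS, BSA and IgG; points are estimates and bars are 95% intervals, with Cxcl10 taken from the fit without a filter. Over all materials the estimates run from -0.70 for Ccl5 to 0.28 for Ccl2, and Ccl2 is the gene with an adjusted p under 0.05.

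The electroporated material came next, with each line compared on its own. In the TRIM21 line, antibody was not followed by a called change in any of these genes: 0 of 8 passed when IgG was set against PBS or BSA, or BSA against PBS, and none had an unadjusted p under 0.05 (edgeR quasi-likelihood test). Among all tested genes 0% were called in each of these 3 comparisons, and 5.61%, 0.371% and 3.68% had an unadjusted p under 0.05. The log2 differences of IgG against PBS in the TRIM21 line ran from -0.25 for Ccl2 (SE 0.119, unadjusted p = 0.0541, adjusted p = 0.724, edgeR) to 0.14 for Il6 (SE 0.487). Against BSA they ran from -0.10 for Ccl2 to 0.36 for Il6 (SE 0.491). When 1 library was left out, the Il6 values ran from -0.297 (without TRIM21 IgG number 14) to 0.607 (without TRIM21 PBS number 14) against PBS, and from -0.0738 (without TRIM21 IgG number 14) to 0.739 (without TRIM21 IgG number 10) against BSA. The precision differed by gene: the interval of IgG against PBS was -0.31 to 0.31 for Ccl7, -0.39 to 0.06 for Csf1 and -0.17 to 0.35 for Cxcl12, but -0.82 to 1.09 for Il6 and -0.73 to 0.95 for Ccl5. For Il6 and Ccl5, rises up to those upper bounds lay within the intervals. IgG against PBS and IgG against BSA share the IgG samples, and the BSA and PBS groups each enter 2 of the 3 comparisons.

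In WT, several of the inducible genes had their lowest values after IgG, and none passed the test. Ccl2 in WT was at 46.9 ± 5.31 CPM with PBS, 46.6 ± 3.79 with BSA and 38.2 ± 2.66 with IgG (SD, n = 3), and every IgG sample lay below every PBS and BSA sample. The log2 difference was -0.30 against PBS (SE 0.12, unadjusted p = 0.0243, adjusted p = 1, edgeR) and -0.29 against BSA (SE 0.12, unadjusted p = 0.029, adjusted p = 0.741, edgeR). Cxcl5 in WT was at 11.3 ± 1.66, 11.9 ± 1.07 and 9.25 ± 0.519 CPM after PBS, BSA and IgG, again with IgG below both controls in every sample (log2 differences -0.29 and -0.36). Against PBS, the Cxcl5 difference was -0.167 without the WT PBS sample numbered 14, and that of Ccl2 was -0.2 without the WT PBS sample numbered 11. Cxcl1 in WT had 4.41, 3.61 and 4.07 CPM with PBS and 3.53, 1.88 and 2.76 CPM with IgG, so that each IgG sample lay below PBS (4.03 ± 0.403 against 2.72 ± 0.827 CPM, log2 difference -0.56, interval -1.11 to 0). The difference was -0.353 without the WT IgG sample numbered 11. Il6 lay below BSA in each IgG sample (1.38 ± 0.372 against 0.905 ± 0.216 CPM, log2 difference -0.61, interval -1.61 to 0.38). The difference was -0.363 without the WT BSA sample numbered 14, and that of Il6 against PBS went from -0.62 to -0.0642 without the WT PBS sample numbered 14. IgG thus lay wholly below PBS for 3 of 8 tested genes, beside 3.95% of all tested genes, and wholly below BSA for 3 of 8, beside 7.18%. Both counts rest on the same 3 IgG samples, and calls stood at 0 of 8 in each comparison and at 0% of all tested genes, with 2.68% and 5.87% at an unadjusted p under 0.05 (Ccl2 alone among the 8, in both). BSA against PBS in WT likewise gave no call (0%), with 2.49% at an unadjusted p under 0.05 and none of the 8 genes among them.

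Cxcl10 was too low for the test, and its counts are shown for completeness. It had 0.363 ± 0.0341 CPM with PBS, 0.214 ± 0.0731 with BSA and 0.246 ± 0.0601 with IgG in the TRIM21 line, and 0.399 ± 0.0334, 0.232 ± 0.0922 and 0.34 ± 0.146 in WT (SD, n = 3). The PBS samples lay above the BSA samples in both lines and above the IgG samples in the TRIM21 line. Among tested genes, BSA lay wholly below PBS for 2.72% in the TRIM21 line and 2.69% in WT, and IgG wholly below PBS for 5.9% in the TRIM21 line. In a fit without the filter, BSA against PBS had a log2 difference of -0.73 in each line (SE 0.454 and 0.448), with edgeR adjusted p values of 0.873 and 1. With 0.0981 to 0.152 CPM as the floor, differences between such values amount to a few counts.

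Whether the lines differed in their response to a material was tested as an interaction, and 0 of 8 genes passed in any of the 3 interactions (0% of all tested genes were called each time, edgeR). An unadjusted p under 0.05 was found for 1.82%, 3.97% and 6.51% of tested genes, and for none of the 8. For Ccl2, IgG against PBS differed between the lines by 0.05 (log2, SE 0.169, interval -0.28 to 0.38) and IgG against BSA by 0.18 (SE 0.169, interval -0.15 to 0.52). The interaction estimates with the greatest size were those of Il6, at 0.76 and 0.97 (SE 0.707 each), with intervals of -0.63 to 2.14 and -0.41 to 2.36. They ranged from 0.203 (without WT PBS number 14) to 1.22 (without TRIM21 PBS number 14) and from 0.538 (without TRIM21 IgG number 14) to 1.35 (without TRIM21 IgG number 10) when 1 library was left out. The smallest edgeR adjusted p values of the 8 genes were 0.972 for IgG against PBS, 0.843 with BSA as the control, and 0.762 for BSA against PBS. Across the 9 material and interaction comparisons, 225 alternative fits, with DESeq2 and limma-voom among them, called none of these genes and no other gene.

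**Figure D3:**
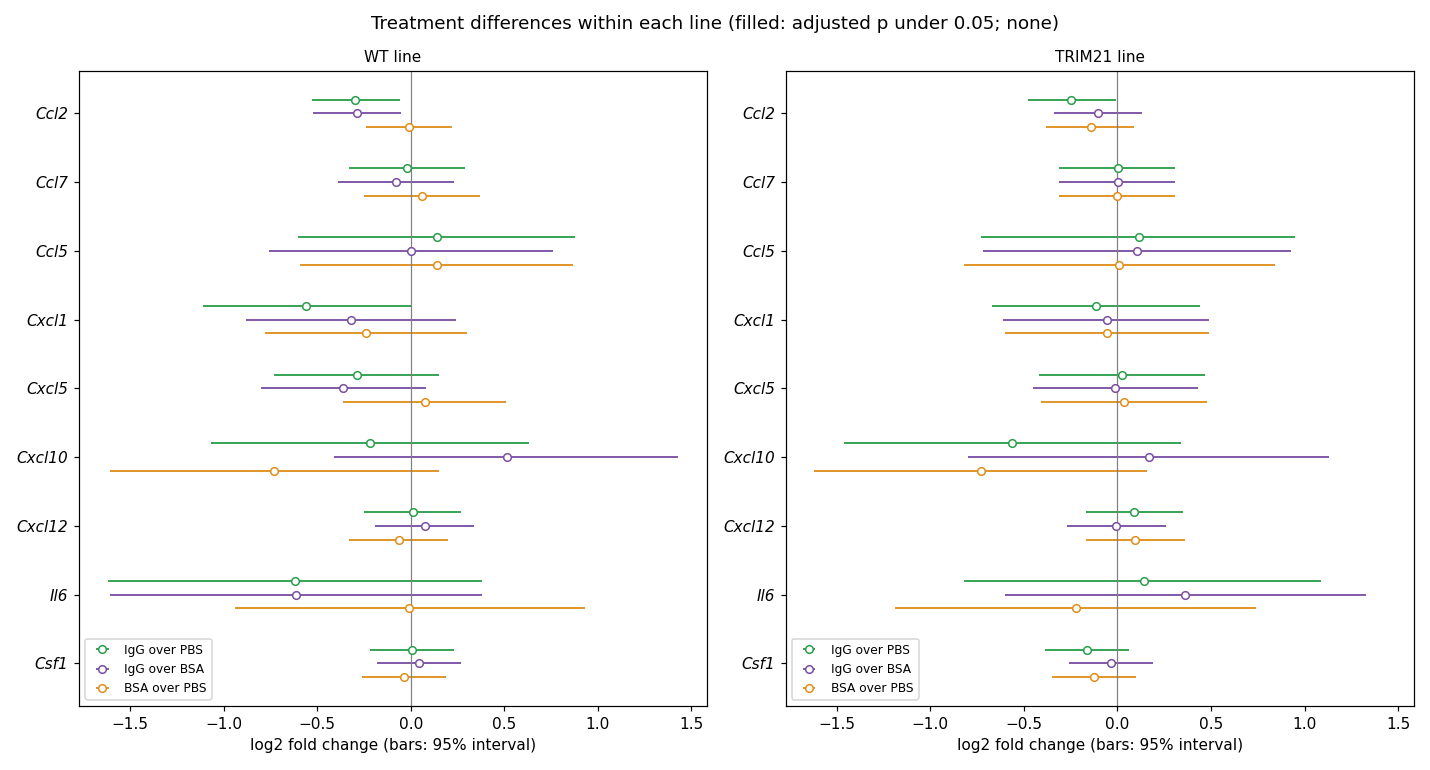
Log2 differences between electroporated materials (IgG over PBS, IgG over BSA and BSA over PBS) for each gene in each line; points are estimates and bars are 95% intervals. None of the tested genes passed the threshold; Ccl2 in WT lies at -0.30 and -0.29 for IgG against PBS and BSA.

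Part of the spread went with the sample number, to a degree that differed by gene. Of the variance of log2 CPM over the 18 samples, the number took 47.2% for Cxcl12, 44.6% for Cxcl1, 38.9% for Ccl7, 33.8% for Il6, 29.6% for Csf1, 26.4% for Ccl5 and 23.9% for Cxcl5, but 1.01% for Ccl2. The line took 39.5% for Ccl2, 37.6% for Cxcl5, 37.5% for Ccl5 and 29% for Cxcl12. The material took 44.7% for Cxcl10, which had 3 to 10 counts per library, 26.7% for Ccl2 and 15% for Cxcl1. Such shares were not computed for all tested genes, so they do not set these genes apart. Line has fewer levels than number or material, so its shares are not directly comparable with theirs. The samples numbered 14 had the highest Cxcl12 of their group in 6 of 6 groups, and those numbered 11 the lowest in 5. Cxcl1 was lowest in the samples numbered 11 in 5 of 6 groups, and Csf1 was lowest in those numbered 10 in 5 of 6. Being highest in at least 5 of 6 groups was seen in the samples numbered 14 for 7.43% of all tested genes, and in those numbered 10 and 11 for 7.89% and 6.31%. Being lowest in at least 5 of 6 was seen in the samples numbered 10 for 6.48% and in those numbered 11 for 3.77%. What the numbers stand for is not given in the labels, and their part in these values was not tested.

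**Figure D4:**
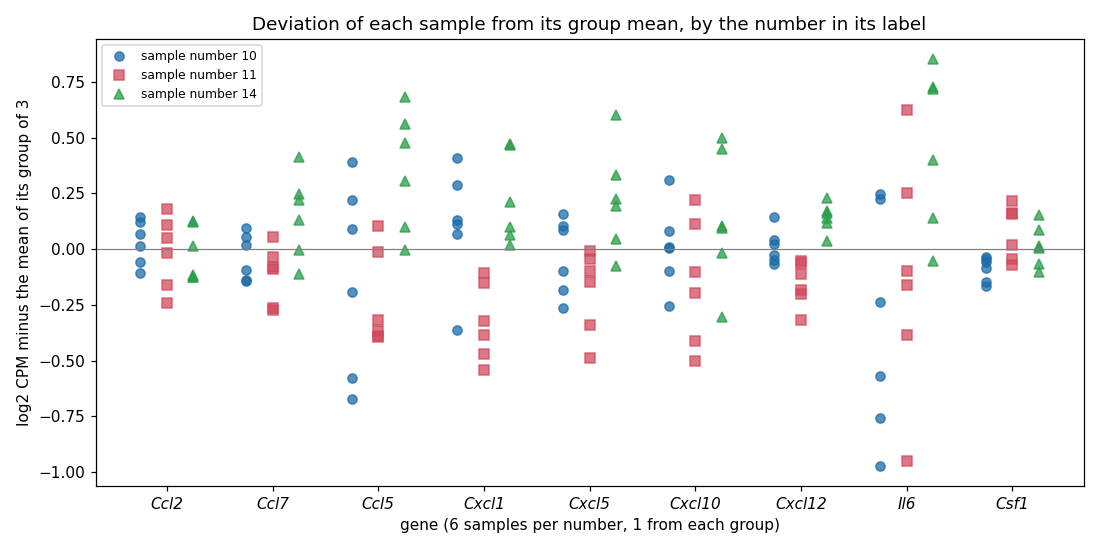
Deviation of each sample's log2 CPM from the mean of its group, for each gene, by the number in the sample title (10, 11 or 14); each point is 1 of 18 samples, 3 to a group. The points of number 14 lie above 0 for Cxcl12 in all 6 groups.

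The genes also moved together to different degrees. Over 18 samples, log2 CPM of Cxcl5 and Cxcl12 had the highest Pearson correlation of the set, 0.83, and Cxcl12 and Csf1 the lowest, -0.53, while the neighbours Ccl2 and Ccl7 stood at 0.30. With the group means removed, Ccl7 and Cxcl5 correlated at 0.96, Cxcl5 and Cxcl12 at 0.89, and Ccl7 and Cxcl12 at 0.83. All of these values share libraries, groups and numbers, and they are given as descriptions. Among the 12139 other tested genes, those with the patterns most like Ccl2 over the 18 samples were Atg9b (0.835), Celf4 (0.827) and Fxr2 (0.827). For Ccl7 they were Nek6 (0.825), another chemokine gene, Ccl8 (0.765), and Ctsb (0.746). Cxcl5 was most like Hoxa10 (0.936), Snhg18 (0.898) and Selk (0.885), and Cxcl12 like Scn7a (0.95), Matn2 (0.948) and Mr1 (0.947). For Ccl5 they were Osr2 (0.838), Ephb6 (0.835) and Sulf2 (0.833), and for Cxcl1 Tmem14a (0.805), Auh (0.798) and Notch4 (0.793). For Il6 they were 1600012H06Rik (0.798), Tc2n (0.776) and Swap70 (0.756), and for Csf1 Itprip (0.891), Fam131b (0.888) and 1810055G02Rik (0.881). Of these 24 genes, Atg9b, Osr2, Sulf2, Snhg18 and Selk, 5 in all, were called between the lines, beside 6.18% of all tested genes. The 24 were picked for likeness over the same 18 samples, line difference included. Their calls therefore cannot be read against that share and add no independent evidence.

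Most receptors for these factors were at or near 0 counts. Of 14 receptor genes, 4 passed the filter, the other 10 had at most 6 counts in any library, and of these Ccr2, Ccr3, Cxcr3, Cxcr4 and Ackr1 had no count in any of the 18 libraries. Ccr2, Cxcr3 and Cxcr4 are the signalling receptors for Ccl2, Cxcl10 and Cxcl12. A count of 0 lies under the floor of 3 counts used here, 0.0981 to 0.152 CPM per library, and does not show that a transcript is absent. Il6st, the shared gp130 subunit, was at 321 CPM in the TRIM21 line and 315 CPM in WT, with a log2 difference of 0.03. Ackr3, a scavenging receptor for Cxcl12, was called lower in the TRIM21 line: 70.0 ± 6.57 against 82.6 ± 3.29 CPM (SD, n = 9, log2 difference -0.24, edgeR adjusted p = 0.0185). The 4 receptors had 0 higher and 1 lower call between lines, beside 1.39% and 4.79% of all tested genes. Their median log2 difference was -0.035, against 0.014 over all tested genes.

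Several other secreted factors differed between the lines by more than Ccl2 did, as estimates. Of 25 other chemokine genes, 12 had no count in any sample, among them Cxcl2, Cxcl3, Ccl3 and Cxcl9. Of the 8 tested, 1 was called higher and 1 lower in the TRIM21 line, beside 1.39% and 4.79% of all tested genes. Cx3cl1, the membrane-bound chemokine fractalkine, was lower at 29.9 ± 4.9 against 46.9 ± 5.56 CPM (SD, n = 9, log2 difference -0.65, edgeR adjusted p = 0.00027). Ccl9 was higher at 2.59 ± 0.522 against 1.92 ± 0.29 CPM (log2 difference 0.41, edgeR adjusted p = 0.0361), a call that held in 7 of 18 fits that left out 1 library. It was lost (edgeR adjusted p 0.0552 to 0.0825) without TRIM21 PBS number 10 or 11, TRIM21 BSA or IgG number 10 or 14, WT PBS number 11, or WT BSA or IgG number 11 or 14. Of 24 other cytokine genes, 15 were tested, 3 called higher and 1 lower, beside the same 1.39% and 4.79% of all tested genes. Il33, an alarmin stored in the nucleus, was at 41.4 ± 17.4 against 17.4 ± 3.05 CPM (log2 difference 1.26, edgeR adjusted p = 0.00259). Within numbers 10, 11 and 14 its difference was 1.25, 0.643 and 1.6 (edgeR adjusted p = 0.000369, 0.759 and 2.11e-05). Il34, which encodes the second ligand of the CSF1 receptor, was at 8.05 ± 1.53 against 5.07 ± 0.702 CPM (log2 difference 0.67, edgeR adjusted p = 0.00279). Tgfb3 was lower at 80.3 ± 8.49 against 100 ± 7.84 CPM (log2 difference -0.32, edgeR adjusted p = 0.00647). The third higher call, Kitl, which encodes stem cell factor, was named after its values were seen (197 ± 13.5 against 161 ± 15.9 CPM, log2 difference 0.30, edgeR adjusted p = 0.00725). The median log2 difference was 0.052 for the 8 other chemokines and -0.007 for the 15 other cytokines. That these lists differed from the 9 genes was not tested.

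Genes that control and read these factors gave 2 calls between lines among 3 lists, beside 6.18% of all tested genes. Of 18 genes of NF-kB and C/EBP control, which include Rela, Nfkbia and Cebpb, 0 were called between lines by edgeR or limma-voom, and 1 by DESeq2 or by edgeR without the filter on low counts (median log2 difference -0.009). The smallest edgeR adjusted p was that of Birc3, an inhibitor of cell death induced by NF-kB (6.94 ± 1.34 against 9.12 ± 1.19 CPM, SD, n = 9, log2 difference -0.39, adjusted p = 0.0643), the 1 gene of the list with an unadjusted p under 0.05. Without TRIM21 PBS number 10, 11 or 14, WT PBS number 11 or WT BSA number 11, 1 gene of this list was called. Of 10 mRNA decay genes, which include Zfp36 and Zc3h12a, 0 were called by edgeR, DESeq2 or limma-voom, and 2 had an unadjusted p under 0.05 (median 0.026). Without TRIM21 PBS number 14, 1 of them was called. Among 14 genes of cytokine signalling and feedback, 2 were called lower and 0 higher (median -0.049). Both are feedback inhibitors downstream of STAT5: Socs2 was at 13.1 ± 2.47 against 22.2 ± 4.18 CPM (log2 difference -0.76, edgeR adjusted p = 0.000707) and Cish at 14.6 ± 3.84 against 23.9 ± 4.09 CPM (log2 difference -0.72, edgeR adjusted p = 0.00469). Cx3cl1 and Socs2 were also called after PBS alone. Ackr3, Cx3cl1, Ccl9, Il33, Il34, Tgfb3, Kitl, Socs2 and Cish each kept their sign within every number, with 6 of the 9 called within number 10, 0 within number 11 and 4 within number 14 (edgeR). Of all 12140 tested genes, 315, 49 and 259 were called in these fits. The 9 were named for their calls over these same samples, so the single-number fits add no independent evidence. The fibroblast markers, whose sum was 19600 to 33400 CPM in the TRIM21 line and 29000 to 39000 in WT, had a median of -0.264, and their part in these differences was not tested.

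**Figure D5:**
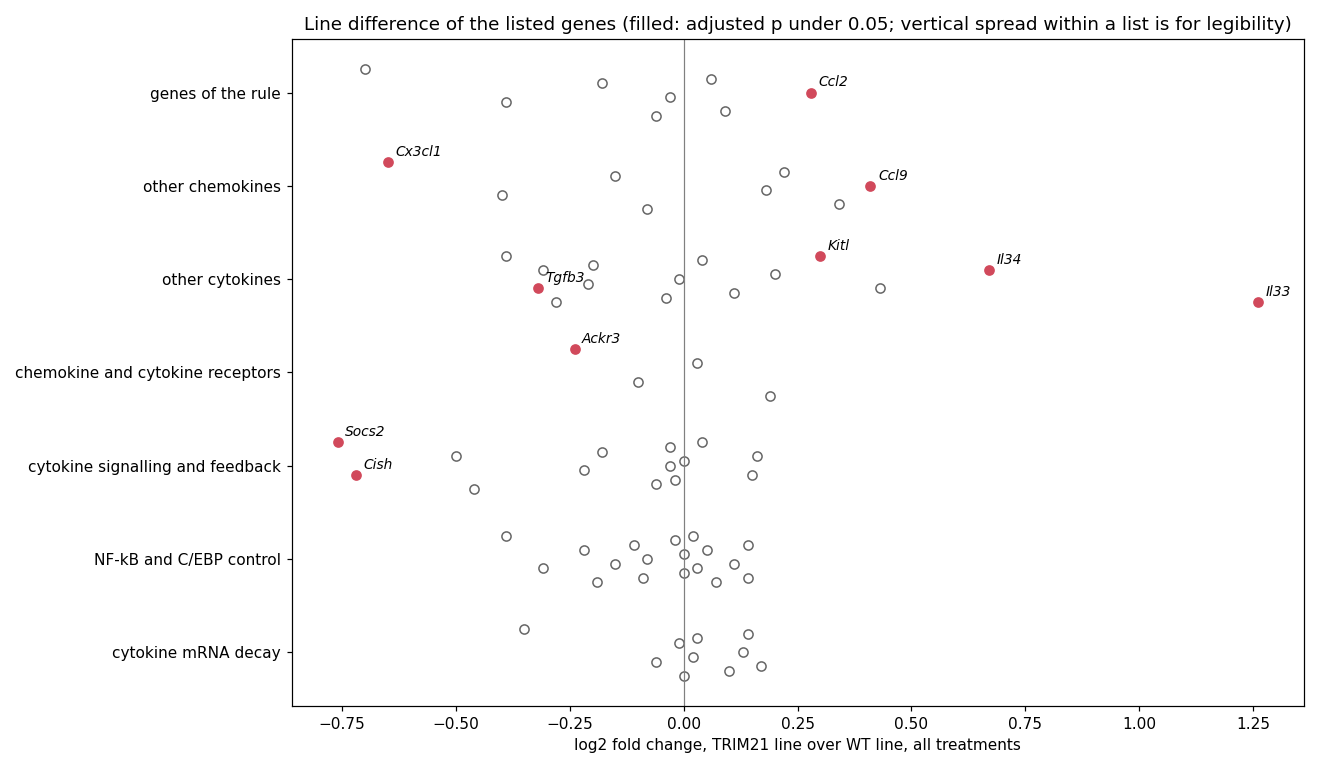
Log2 difference between the lines over all materials for every tested gene of each list (1 point a gene, filled and named where the adjusted p is under 0.05); vertical spread within a list has no meaning. The 9 named genes contribute 8 points from -0.70 to 0.28, and Il33 at 1.26 is the highest point among the lists.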

How the data were processed

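Poly(A) RNA libraries of 18 samples were analysed from the deposited raw read count per gene, made by the authors with STAR 2.5.1b and HTSeq 0.6.0 on mm10, per the submitters' processing notes. Whether counting used strand is not given in the sources used here. Lines that name no gene were left out. Reads in no feature made up 13.1 to 18.8% of the reads that were in genes, in no feature or ambiguous. Alignments that were not unique, left out as well, made up 36.4 to 40.6% of everything tallied in a library.

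Counts were fitted with edgeR 4.0.16 (R 4.3.3, quasi-likelihood test, TMM factors of 0.977 to 1.03, 1 mean per group, all 18 samples), on genes kept by filterByExpr with a minimum count of 10. Adjusted p values are Benjamini-Hochberg over 12140 genes, with a threshold of 0.05, in 13 comparisons. The edgeR calculation was tested on simulated data. CPM values use TMM library sizes, and fold changes and standard errors come from the fit. Intervals are approximate 95% intervals from the SE. Log2 CPM for correlations had a prior count of 2. Alternatives were DESeq2 1.42.0, limma-voom (limma 3.58.1), DESeq2 size factors, other filters, a replicate block, single numbers and leaving out each library. The single-number fits had 1 mean per line, with its PBS, BSA and IgG samples in the place of replicates. No pair of samples in a group agreed within counting noise (chi-square per degree of freedom 10.7 to 83.7), and none was treated as 1 library deposited a second time. Annotation was GENCODE M21 (GRCm38).

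The genes and lists were chosen with earlier results of these data known. Named were the 9 genes, the 3 tested genes most correlated with each, up to 3 genes of each list with the smallest adjusted p under 0.05 between lines, list genes called in another comparison, and Trim21. Thy1, Cd68, Cd14, Csf1r, Kitl, Birc3 and receptors at 0 were named after their values were seen.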

Additional observations from a re-analysis of the deposited data

How the results depend on the processing

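The count of named genes called between lines was 1, and it was 2 with DESeq2, 0 within numbers 10 and 11, and 0 to 2 when 1 library was left out. All genes called numbered 750, against 315, 49 and 259 within numbers 10, 11 and 14 and 500 (without TRIM21 IgG number 10) to 1244 (without TRIM21 PBS number 14) without 1 library. After PBS, 208 genes were called, against 132 with at least 10 counts in every sample, 451 with DESeq2, 47 with only the groups compared and 98 (without WT PBS number 14) to 1014 (without TRIM21 PBS number 14) without 1 library. After BSA, 103 became 53, 164 and 65 to 135 under the filter, DESeq2 and leaving out 1 library. After IgG, 94 became 57, 166, 189 with only the groups compared and 66 to 146. Fewer samples enter the single-number fits, which also have 1 mean per line in place of 1 per group. Otherwise the cause was not tested. No comparison of materials or interaction gave a call under any alternative.

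With the sample number as a replicate block, 4 of the named genes were called between lines (edgeR adjusted p = 0.0164 for Ccl2, 0.026 for Ccl5 at -0.703, 0.0174 for Cxcl5 at -0.412 and 0.0262 for Cxcl12 at -0.189), and 1462 genes in all, with 847 after PBS, 187 after BSA and 173 after IgG. The labels do not say that the numbers pair samples. Deviations of same-numbered samples from their group means correlated at 0.218 on average (-0.323 to 0.578, over 0.1 in 32 of 45 pairs). Other pairs averaged -0.109, a value that subtracting the group means ties to the first, so it is no separate baseline. Of 18 samples, 16 were closest to their own number, a hint from the data and not from the design.

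No estimate that changed sign was called. Within number 10 these were Ccl7 at -0.0499 and Ccl5 at 0.108, within number 11 Ccl7 at -0.116 and Cxcl10 at 0.0939, and within number 14 Cxcl1 at 0.231. When 1 library was left out, signs changed without TRIM21 IgG number 14 (Ccl7 and Cxcl5), TRIM21 PBS number 11 (Cxcl12), TRIM21 PBS number 14 (Cxcl1), WT PBS number 14 (Il6) and WT BSA number 14 (Ccl5). The ranges between lines were -0.673 to 0.349 for Il6 after PBS and -0.117 to 0.251 for Ccl7 after IgG. For IgG against PBS in the TRIM21 line they were -0.237 to 0.133 for Ccl7, -0.4 to 0.167 for Cxcl1, -0.349 to 0.203 for Cxcl5 and -0.0515 to 0.186 for Cxcl12, and Ccl7 ranged from -0.236 to 0.133 for IgG against BSA. For BSA against PBS they were -0.281 to 0.226 for Cxcl1 and -0.0457 to 0.181 for Cxcl12 in the TRIM21 line, and -0.323 to 0.548 for Il6 and -0.327 to 0.441 for Ccl5 in WT. For the interactions with PBS and BSA as the control, Ccl7 ranged from -0.219 to 0.151 and -0.156 to 0.212, and Cxcl5 from -0.062 to 0.489 and -0.024 to 0.516. A further 169 of 3187 recomputed single-gene values changed sign by less than 1 SE without a call and were counted as unchanged. At 3 to 10 counts per library, Cxcl10 had no value under the stricter filter.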
